A study of Mus musculus with 9 samples.

Results

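The open chromatin described here is that of 10 genes of the gp130 and STAT3 signalling pathway in a cultured line of mouse breast carcinoma, D2A1-d. The genes are Lif, Il6st, Lifr, Osmr, Jak1, Jak2, Stat3, Socs1, Socs2 and Socs3. The assay was ATAC-seq: a transposase inserts sequencing adapters where DNA is accessible, and reads pile up there in peaks. A peak was given to one of these genes when its centre lay inside the gene, or else when that gene's annotated end was the nearest protein-coding gene end and lay within 50 kb. The peaks were chosen by their positions alone, while the 10 genes were selected on their pathway with earlier normalized counts and fold changes of these same libraries in view, so their counts are descriptions and support nothing by themselves. The rule found 83 of the 75936 peaks of the deposited table, and 15720 protein-coding genes had a peak in all. Socs3 and Lif held 12 each, Jak1 13, Osmr 9, Lifr 8, Stat3 7, Il6st and Jak2 6 each, and Socs1 and Socs2 5 each. By place, 8 of the 83 peaks had their centre within 1 kb of the gene's own RefSeq start site, 35 lay elsewhere in a gene and 40 between genes.

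The cells carried the short hairpin shMed1 #2 (3 libraries), the short hairpin shMed1 #4 (3 libraries) or a non-targeting control, NTC (3 libraries), and the labels give all of them a wild-type genotype and no drug. Both shMed1 hairpins are aimed at Med1, a subunit of Mediator, the complex that carries signals from transcription factors to RNA polymerase II. The comparison asks how open chromatin differs between cells with a Med1 hairpin and control cells. Biological replicates are named in the labels, but whether they were separate cultures is not said, and p-values therefore reflect no more than the spread among these libraries.

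In gp130 signalling a cytokine of the interleukin-6 family, such as LIF, binds a pair of receptor chains, 1 of which is gp130 (the product of Il6st). The kinases JAK1 and JAK2, bound to the receptor tails, then phosphorylate STAT3, which enters the nucleus and switches genes on. Socs3 is among those genes, and its product binds gp130 and JAK and shuts the signal down, so that the pathway limits itself.

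The start-site sequences of the genes with the most open start site (Socs3), with the start site that rose most (Jak2) and with no start-site peak (Lif) are shown here, since the results below turn on them. Each runs 5′ to 3′ along the gene's own strand, from 250 bases before to 50 bases after the start site, and comes from RefSeq for the build GRCm38.p6. Capitals mark a match to TTCNNNGAA, the letters bound by STAT proteins, or to TGANTCA, those bound by AP-1. Both motifs read the same on either strand and do not overlap here. The windows are chr11:117969317-117969616 (minus strand) for Socs3, chr19:29251553-29251852 (plus strand) for Jak2 and chr11:4257318-4257617 (plus strand) for Lif.
Socs3: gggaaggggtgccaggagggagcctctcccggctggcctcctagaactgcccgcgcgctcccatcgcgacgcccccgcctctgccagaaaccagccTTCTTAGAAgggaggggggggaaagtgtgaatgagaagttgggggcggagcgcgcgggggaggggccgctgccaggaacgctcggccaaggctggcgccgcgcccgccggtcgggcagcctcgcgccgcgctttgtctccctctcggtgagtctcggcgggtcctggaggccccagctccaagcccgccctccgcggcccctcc
Jak2: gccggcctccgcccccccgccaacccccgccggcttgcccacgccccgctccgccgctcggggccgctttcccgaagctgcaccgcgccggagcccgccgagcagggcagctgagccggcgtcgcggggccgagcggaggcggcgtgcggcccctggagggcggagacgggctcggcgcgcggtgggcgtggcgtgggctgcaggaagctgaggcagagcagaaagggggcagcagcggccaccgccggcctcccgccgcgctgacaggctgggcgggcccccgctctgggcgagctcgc
Lif: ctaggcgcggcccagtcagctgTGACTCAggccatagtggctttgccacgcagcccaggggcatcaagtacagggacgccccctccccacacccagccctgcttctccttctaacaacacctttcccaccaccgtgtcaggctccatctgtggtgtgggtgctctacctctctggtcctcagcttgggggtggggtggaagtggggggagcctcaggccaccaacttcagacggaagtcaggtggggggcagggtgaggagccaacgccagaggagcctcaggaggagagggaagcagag
The Socs3 window was 73.3% G and C and held 1 STAT match, 154 bases before the start site, which lay 98 bases outside the nearest edge of the Socs3 start-site peak. The Jak2 window was 81.0% G and C and held neither motif. The Lif window was 63.7% G and C and held 1 AP-1 match, 228 bases before the start site and 1419 bases from the nearest peak. Among the 32851 promoter windows of the RefSeq table, 8.30% held the STAT motif and 7.81% the AP-1 motif. Of the 10 windows listed for these genes (Lifr has 2, and Socs2 none in the table), 1 held the STAT motif and 2 the AP-1 motif, the other being that of Osmr. A match describes the letters only.

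Values are the authors' normalized counts per peak, that is, read counts divided by a factor per library. Reads in peaks came to 37.7 to 53.7 M in shMed1 #2, 34.8 to 42.6 M in shMed1 #4 and 40.9 to 46.4 M in NTC libraries, and the sums of the normalized values to 43.4 to 44.2 M, 43.1 to 43.6 M and 41.2 to 41.5 M in the same order. Since these sums were higher with the hairpins, the calls were also computed with the sums set equal and with quantile normalization, and a call for the mean of both hairpins that was lost or turned there is named beside it. Equal sums moved the median log2 change of all peaks to -0.09 for the mean of both hairpins, against -0.01 with the deposited scaling. A peak is said to have risen or fallen where limma's adjusted p, over all 75930 peaks tested, was below 0.05 for the mean of both hairpins against NTC. Fold changes are on the log2(value + 1) scale with limma's standard error. The Med1 start-site peak (chromosome 11, 98192989 to 98193490) had 2152, 2049 and 1869 normalized counts in shMed1 #2, 2013, 1887 and 2014 in shMed1 #4, and 2066, 2141 and 2134 in NTC. Its values overlapped between groups (log2 fold change -0.08 ± 0.04, limma adjusted p = 0.132). A hairpin acts on the transcript, so this peak does not check the knockdown. Among lineage markers, only 2 of the 6 mesenchymal genes, Vim and Twist1, had a listed start site, and both were open there. Vim stood at 4332 ± 14.2 in shMed1 #2, 4568 ± 61.5 in shMed1 #4 and 4576 ± 122 in NTC (SD, n = 3). The Twist1 start site fell (-0.18 ± 0.05, limma adjusted p = 0.00157), and of the 52 peaks of the 6 mesenchymal genes 5 rose and 14 fell, with a median of -0.18. Of the 4 epithelial markers with a listed start site, 2 had a peak there. Krt18 had a weak one that fell (121, 172 and 209 in the same order, -0.53 ± 0.12) and Elf5 one at 98.8, 120 and 131. Esrp1 had no peak at all. Of the 30 epithelial peaks 6 rose and 7 fell. With equal sums, 5 epithelial peaks were higher and 10 lower, and 4 mesenchymal peaks were higher and 20 lower. Of all 75930 peaks tested, 16796 rose and 13452 fell, while with equal sums 12104 were higher and 21010 lower. Blood markers, and endothelial and fat markers, had no start-site peak in any of the 3 genes of each list with a listed start site. Summed over all peaks of the 6 genes of a list, epithelial markers ranged from 15279 to 16219 in shMed1 #2, from 15506 to 16032 in shMed1 #4 and from 14499 to 14880 in NTC. Mesenchymal markers ranged from 30543 to 31222, 30664 to 32268 and 29482 to 30871 in the same order. Endothelial and fat markers ranged from 7782 to 8226, 6809 to 7020 and 6724 to 6998. Blood markers ranged from 4487 to 4752, 4197 to 4610 and 4303 to 4576, and overlapped. All these marker sums are on the deposited scaling. The part of these lists in the results below was not tested. In bulk libraries fewer open cells and less opening per cell cannot be told apart.

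Across the 83 peaks, rises were more frequent than falls with either hairpin. With shMed1 #2 against NTC, 27 peaks were higher and 11 lower, so that 45.8% were called, where 43.1% of all peaks tested were called (23.6% higher and 19.5% lower). With shMed1 #4 against NTC, 26 were higher and 6 lower, or 38.6%, against 29.4% of all peaks (17.3% higher and 12.1% lower). For the mean of both hairpins, 34 rose and 10 fell, or 53.0%, against 39.8% of all peaks (22.1% higher and 17.7% lower). The split depended on the scaling: with equal sums 22 were higher and 17 lower, and with quantile normalization 27 higher and 13 lower. Of all 75930 peaks tested, 12104 were higher and 21010 lower with equal sums, and 14947 and 15203 with quantile normalization. In all 3 scalings 22 of the 83 were higher and 8 lower, a count whose share over all peaks is not given here. The falls also rested on single libraries, with 5 falls in place of 10 for the mean of both hairpins without NTC replicate 3. Rises of the 83 were lost there too, such as that of the Il6st start site. Over all peaks tested, falls went from 13452 to 8325 in that setting and rises from 16796 to 13633. The median log2 change was 0.11 over the 83 peaks and -0.01 over all peaks tested, 0.07 and -0.02 with shMed1 #2, and 0.10 and -0.01 with shMed1 #4. No peak of the 10 genes reached a change of 1 on the log2 scale.

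Of the 83 peaks, 17 were called higher with both hairpins, each tested against NTC, where 12.3% of all peaks were. Called lower with both were 6, where 7.78% of all peaks were. None was called in opposite directions by the hairpins. All 6 hairpin libraries lay above all 3 NTC libraries at 25 peaks (15% of all peaks did so) and below them at 7 (12.3% of all peaks). Since both contrasts use the same NTC libraries, these counts are not independent of each other.

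**Figure D1:**
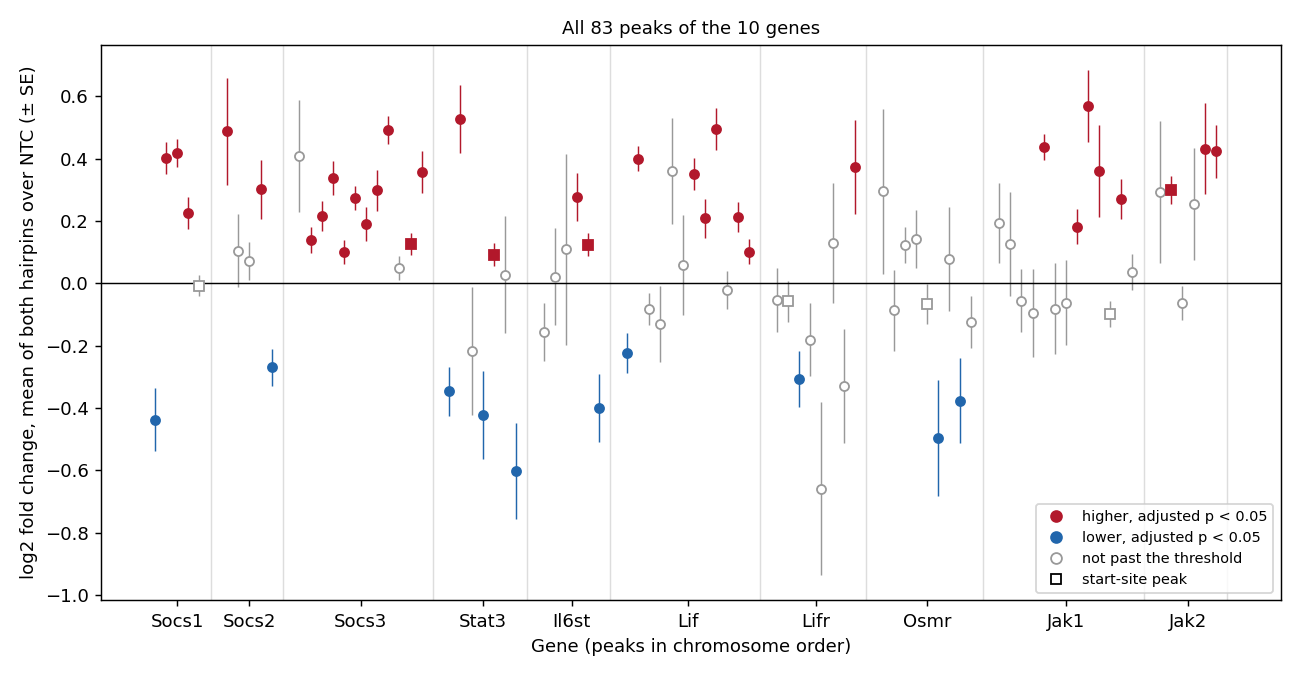
Log2 fold change of the mean of both shMed1 hairpins over NTC (vertical axis, ± limma's SE) for the 83 peaks of the 10 genes, in chromosome order within each gene (horizontal axis). Filled red points rose and filled blue points fell by the adjusted p threshold of 0.05, open points did not pass, and squares are start-site peaks. At Socs3, 10 of the 12 points are red and none is blue, where 22.1% of all peaks tested rose and 17.7% fell.

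Rises were most frequent at strong peaks. Of the 23 peaks with a mean of at least 1000 normalized counts, 19 rose and none fell, where 46.2% of all peaks this strong rose and 18.5% fell. With equal sums this count was 12 higher and 3 lower, and with quantile normalization 12 and 5. Of the 25 peaks between 200 and 1000, 9 rose and 5 fell (29.1% and 19.9% of all such peaks), and of the 35 below 200, 6 rose and 5 fell (8.53% and 15.9%). By place, 21 of the 40 peaks between genes rose and 5 fell (21.8% and 17.5% of all such peaks). Of the 35 elsewhere in a gene, 9 rose and 5 fell (23.8% and 14.5%). Of the 8 start-site peaks 4 rose and none fell, where 14.7% of all start-site peaks rose and 35.1% fell, but with equal sums 1 was higher and 2 lower, and with quantile normalization 1 and 3. For strong and for start-site peaks, the shares of all such peaks in the other scalings are not given here.

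Lif encodes the cytokine that signals through the LIF receptor and gp130. It had no peak at its start site. The nearest, 1.45 kb downstream (chromosome 11, 4258765 to 4259266), had 589, 557 and 539 normalized counts in shMed1 #2, 625, 662 and 651 in shMed1 #4, and 711, 695 and 704 in NTC. All hairpin libraries were below all NTC libraries, and the peak fell (-0.22 ± 0.06, limma adjusted p = 0.00401). The strongest Lif peak, 3.83 kb downstream of the start site and inside the gene (chromosome 11, 4261150 to 4261651), went the other way. It had 3350, 3601 and 4020 in shMed1 #2, 3957, 3856 and 3926 in shMed1 #4, and 2903, 2850 and 2836 in NTC. All hairpin libraries were above NTC (0.40 ± 0.04, limma adjusted p = 9.36e-12). These neighbouring peaks thus changed in opposite directions.

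Of the 12 Lif peaks 6 rose and 1 fell. Beyond the gene, the peak 39.4 kb downstream of the start site (chromosome 11, 4296697 to 4297198) was at 744, 779 and 930 in shMed1 #2, 770, 722 and 677 in shMed1 #4, and 580, 544 and 510 in NTC. Its hairpin libraries all lay above NTC (0.49 ± 0.07, limma adjusted p = 5.38e-08). The peak at 34.3 kb rose by 0.35 ± 0.05 on the log2 scale. With equal sums 4 Lif peaks were higher and 2 lower, and with quantile normalization 5 and 2. The rise of the peak at 51.1 kb (0.10 ± 0.04, limma adjusted p = 0.0419) was lost with equal sums, with quantile normalization, with the replicate number as a block and without any 1 of 6 libraries, with limma adjusted p of up to 0.134 without NTC replicate 2. The rise at 37.1 kb was lost with both scalings and without NTC replicate 3 (limma adjusted p = 0.0681). Osm, the gene of the related cytokine oncostatin M, lies 16.5 kb upstream of Lif.

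The receptor genes moved little at their start sites. Il6st, the gene of gp130, had a start-site peak (chromosome 13, 112463774 to 112464275) with 3194, 3209 and 3102 normalized counts in shMed1 #2, 3113, 3039 and 2968 in shMed1 #4, and 2890, 2880 and 2772 in NTC. All hairpin libraries lay above NTC by a small margin (0.12 ± 0.04, limma adjusted p = 0.00593). This rise was not called with equal sums (0.05), had the other sign with quantile normalization (-0.01), and missed the threshold without NTC replicate 3 (0.11, limma adjusted p = 0.0604). A peak 16.7 kb upstream (chromosome 13, 112447074 to 112447575) rose by 0.28 ± 0.08 on the log2 scale, and was also called higher with equal sums (0.20) and quantile normalization (0.24). A peak 45.6 kb downstream, past the end of the gene (chromosome 13, 112509446 to 112509947), had 179, 168 and 157 in shMed1 #2, 161, 160 and 160 in shMed1 #4, and 194, 204 and 257 in NTC. All hairpin libraries lay below NTC and this peak fell (-0.40 ± 0.11, limma adjusted p = 0.00276). Without NTC replicate 3, its highest library, it no longer passed (-0.28, limma adjusted p = 0.0911).

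Lifr, whose product pairs with gp130 to receive LIF, had 895, 774 and 709 at its start-site peak (chromosome 15, 7129324 to 7129825) in shMed1 #2, 629, 721 and 727 in shMed1 #4, and 757, 745 and 804 in NTC. The groups overlapped and the peak did not pass (-0.06 ± 0.07, limma adjusted p = 0.509). Of its 8 peaks 1 rose and 1 fell. The fall, inside the gene and 5.06 kb downstream of that start site (chromosome 15, 7134380 to 7134881), was -0.31 ± 0.09 with no overlap of hairpin and NTC libraries, and did not pass without NTC replicate 3 (limma adjusted p = 0.0794). The rise, 3.04 kb past the end of the gene, was lost with equal sums, with the replicate number as a block and without any of 4 single libraries (limma adjusted p of up to 0.278, without NTC replicate 3).

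Osmr encodes the partner of gp130 for oncostatin M. Its start-site peak (chromosome 15, 6874018 to 6874519) had 705, 726 and 637 in shMed1 #2, 611, 624 and 612 in shMed1 #4, and 678, 643 and 727 in NTC. The shMed1 #4 libraries lay below the others and the shMed1 #2 libraries overlapped NTC, with no call (-0.07 ± 0.06, limma adjusted p = 0.429). Of the 9 Osmr peaks none rose and 2 fell. The larger fall, 8.08 kb upstream (chromosome 15, 6882140 to 6882641), was at a weak peak with 42.2, 49.5 and 71.4 in shMed1 #2, 71.7, 61.3 and 53.4 in shMed1 #4, and 93.1, 72.8 and 78.7 in NTC. All hairpin libraries were below NTC (-0.50 ± 0.19, limma adjusted p = 0.0304). This call was lost with quantile normalization and without any of 4 single libraries (adjusted p of up to 0.162, without NTC replicate 1). The other, 9.75 kb upstream, was lost likewise (up to 0.107, without NTC replicate 2).

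Of the kinase genes, Jak2 rose at its start site. That peak, centred 0.373 kb upstream of the start (chromosome 19, 29251180 to 29251681), covered 129 of the 300 bases printed above. It had 2191, 2012 and 1973 normalized counts in shMed1 #2, 1930, 1969 and 2044 in shMed1 #4, and 1569, 1653 and 1697 in NTC. All 6 hairpin libraries lay above NTC (0.30 ± 0.05, limma adjusted p = 3.58e-07). The rise was called with each hairpin (0.33 ± 0.05 with shMed1 #2 and 0.27 ± 0.05 with shMed1 #4) and under every alternative computed for each of these contrasts. It was the largest change among the 8 start-site peaks. A second peak, 40.9 kb into the gene (chromosome 19, 29292494 to 29292995), rose mainly with shMed1 #2. It had 438, 483 and 519 in shMed1 #2, 375, 314 and 371 in shMed1 #4, and 346, 293 and 283 in NTC, so that shMed1 #2 stood above both other groups, which overlapped. A weak peak 19.4 kb into Jak2 also rose (0.43 ± 0.15), but not without NTC replicate 3 (limma adjusted p = 0.0759) or NTC replicate 1 (0.0516).

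Jak1 differed in that its start site did not rise while peaks inside the gene did. The start-site peak (chromosome 4, 101264974 to 101265475) had 2237, 2109 and 1958 in shMed1 #2, 2288, 2206 and 2222 in shMed1 #4, and 2322, 2281 and 2356 in NTC. Its change was -0.10 ± 0.04 (limma adjusted p = 0.0615), and it was called lower with equal sums (-0.18), with quantile normalization (-0.20), with quality weights per library (-0.10) and without shMed1 #2 replicate 1 (-0.12, limma adjusted p = 0.0126). The strongest Jak1 peak inside the gene, 62.4 kb downstream of the start (chromosome 4, 101202588 to 101203089), had 2766, 2688 and 2711 in shMed1 #2, 2486, 2444 and 2366 in shMed1 #4, and 1980, 1917 and 1807 in NTC. The 3 groups did not overlap, with shMed1 #2 highest (0.44 ± 0.04, limma adjusted p = 2.04e-12). The largest rise of all 83 peaks, 25.8 kb into Jak1 (chromosome 4, 101239190 to 101239691), had 171, 215 and 228 in shMed1 #2, 159, 151 and 150 in shMed1 #4, and 114, 128 and 115 in NTC (0.57 ± 0.12, limma adjusted p = 9.03e-05). Of the 13 Jak1 peaks 5 rose and none fell, with equal sums 3 were higher and 1, the start site, lower, and with quantile normalization 4 and 1. The rise of a peak at 30.7 kb was lost with both other scalings and without NTC replicate 2 (limma adjusted p = 0.0637), and that of a weak peak at 8.43 kb with equal sums, with the block and without any of 6 single libraries (up to 0.198, without NTC replicate 2).

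**Figure D2:**
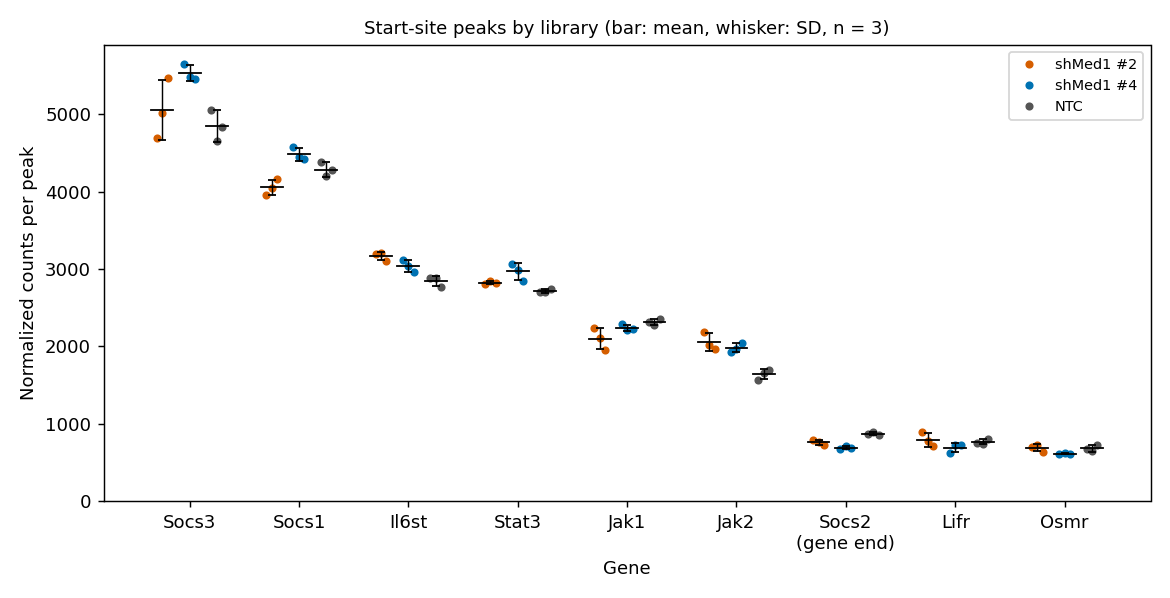
Normalized counts per library (vertical axis) at the 8 start-site peaks and at the gene-end peak of Socs2, ordered by level (horizontal axis), with the mean and SD of the 3 libraries of shMed1 #2, shMed1 #4 and NTC. Jak2 is the gene whose hairpin libraries stand farthest above NTC on the log2 scale, at 1930 to 2191 with a hairpin against 1569 to 1697 in NTC.

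Stat3, the transcription factor of the pathway, showed opposite changes within 1 gene. Its start-site peak (chromosome 11, 100939317 to 100939818) had 2809, 2846 and 2817 in shMed1 #2, 3066, 2993 and 2847 in shMed1 #4, and 2700, 2698 and 2748 in NTC. All hairpin libraries lay just above NTC, and the change passed narrowly (0.09 ± 0.04, limma adjusted p = 0.0461). That call was lost with equal sums (0.01), with quantile normalization (-0.04), with the replicate number as a block and without any of 7 single libraries (limma adjusted p of 0.0503 to 0.147). A peak 26.6 kb into the gene (chromosome 11, 100912704 to 100913205) had 206, 193 and 227 in shMed1 #2, 204, 196 and 255 in shMed1 #4, and 159, 149 and 134 in NTC. It rose, with all hairpin libraries above NTC (0.53 ± 0.11, limma adjusted p = 9.86e-05).

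The largest fall of all 83 peaks that passed was 8.23 kb upstream of the Stat3 start site (chromosome 11, 100947522 to 100948023). It had 75.6, 69.1 and 67.3 in shMed1 #2, 68.6, 83.8 and 70.1 in shMed1 #4, and 110, 119 and 102 in NTC, with all hairpin libraries below NTC (-0.60 ± 0.15, limma adjusted p = 0.00155). Inside the gene, a peak at 45.9 kb fell by 0.35 ± 0.08 on the log2 scale. Another at 7.73 kb (chromosome 11, 100931564 to 100932065), at 127, 84.1 and 97.7 in shMed1 #2, 99.4, 136 and 100 in shMed1 #4, and 127, 144 and 157 in NTC, fell with some overlap (-0.42 ± 0.14, limma adjusted p = 0.0139). This last call was lost without NTC replicate 3 (0.108) or NTC replicate 2 (0.0559). In all, 2 of the 7 Stat3 peaks rose and 3 fell, and in each of the other scalings 1 was higher and 3 lower. Stat5a, the gene of a related transcription factor, lies 1.64 kb beyond the far end of Stat3.

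Socs3, the feedback inhibitor of gp130, held the highest summed signal of the 10 genes and rose at the most peaks. Of its 12 peaks 10 rose and none fell, and all 12 log2 changes were positive. Of all peaks tested 22.1% rose and 17.7% fell, and of those with a mean of at least 1000 46.2% and 18.5%. The median mean of the 12 Socs3 peaks was 2003 normalized counts. The share over all peaks also applies to the counts given for the other genes, but that of strong peaks does not apply to genes with weak peaks. The median mean was 119 for Stat3, 131 for Lifr, 131 for Osmr and 159 for Jak1. Of all peaks with a mean below 200, 8.53% rose and 15.9% fell. The counts over all peaks in the other scalings, given above, apply to each gene as well. For the mean of both hairpins, 6 Socs3 peaks were higher and none lower with equal sums, and 7 higher and 2 lower with quantile normalization. With shMed1 #2 against NTC 7 were higher and none lower, against 4 and 0 with equal sums and 5 and 2 with quantile normalization. With shMed1 #4 against NTC 10 were higher and none lower, against 7 and 0 with equal sums and 6 and 0 with quantile normalization. The same 6 peaks were higher in all 3 scalings for the mean of both hairpins. The next genes are Pgs1, 16 kb away on the upstream side, and Tha1, 92.6 kb away on the downstream side, which holds 10 of the 12 peaks.

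**Figure D3:**
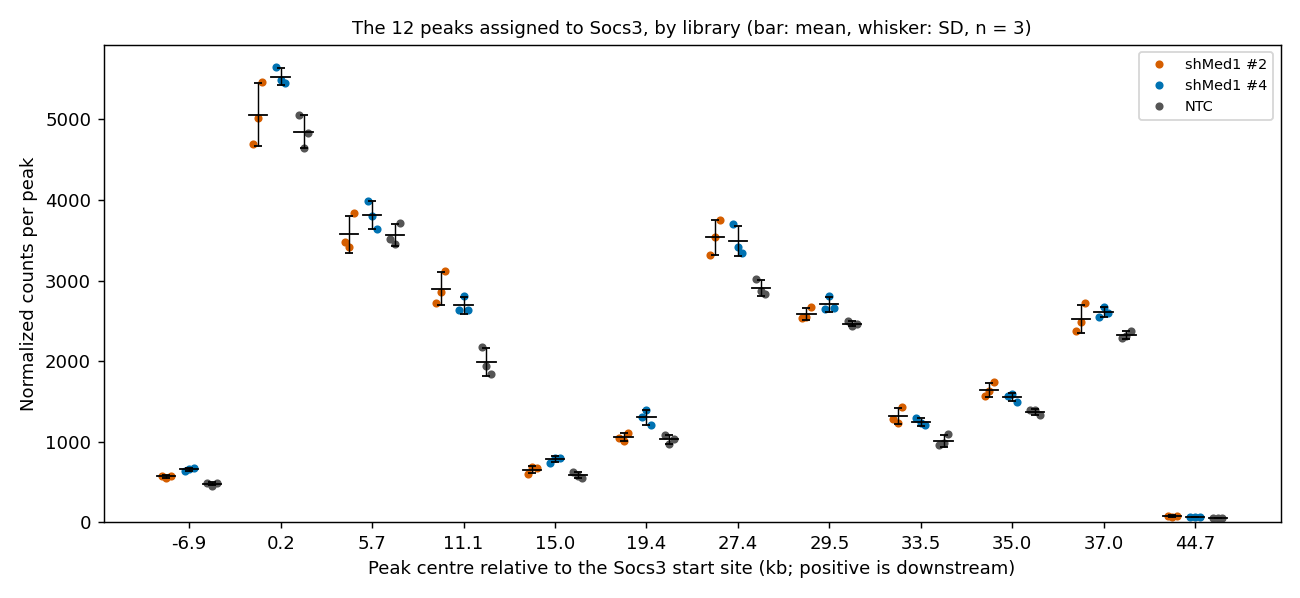
Normalized counts per library (vertical axis) at the 12 peaks of Socs3 against the distance of the peak centre from the start site in kb (horizontal axis, positive is downstream, peaks evenly spaced), with the mean and SD of the 3 libraries of shMed1 #2, shMed1 #4 and NTC. The hairpin libraries stand clear of NTC at 11.1 kb, where they range from 2631 to 3122 against 1843 to 2177, and overlap with NTC at 5.72 kb.

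The Socs3 start-site peak, centred 203 bases downstream of the start (chromosome 11, 117968913 to 117969414), was the most open of the 8 start-site peaks. It stood at the 99.3 percentile of the 9008 start-site peaks in NTC, followed by Socs1 (98.5), Il6st (90.0), Stat3 (88.5), Jak1 (81.4), Jak2 (61.6), Lifr (27.6) and Osmr (24.4). It had 4691, 5015 and 5466 normalized counts in shMed1 #2, 5648, 5488 and 5452 in shMed1 #4, and 5056, 4650 and 4837 in NTC. The shMed1 #4 libraries were above all NTC libraries, while those of shMed1 #2 spread across them. The peak rose for the mean of both hairpins (0.12 ± 0.04, limma adjusted p = 0.00394) and with shMed1 #4 (0.19 ± 0.04, 0.000284) but did not pass with shMed1 #2 (0.06 ± 0.04, 0.245). Its direction depended on the scaling: the mean of both hairpins was 0.05 with equal sums and -0.12 with quantile normalization, where it was called lower. Without NTC replicate 2 the rise missed the threshold (0.10, limma adjusted p = 0.0823).

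The largest Socs3 change was at the peak 11.1 kb downstream of the start site, past the end of the gene (chromosome 11, 117958058 to 117958559). It had 2723, 2856 and 3122 in shMed1 #2, 2631, 2813 and 2633 in shMed1 #4, and 2177, 1944 and 1843 in NTC. Every hairpin library exceeded every NTC library, and the peak rose by 0.49 ± 0.05 on the log2 scale (limma adjusted p = 1.08e-12), under every alternative computed. At 27.4 kb (chromosome 11, 117941714 to 117942215) the values were 3317, 3535 and 3755 in shMed1 #2, 3700, 3416 and 3346 in shMed1 #4, and 3015, 2866 and 2828 in NTC. All hairpin libraries lay above NTC there too (0.27 ± 0.04, limma adjusted p = 1.60e-07). The peaks at 33.5 kb (0.34 ± 0.05) and 35.0 kb (0.22 ± 0.05) rose in all 3 scalings as well.

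The 1 Socs3 peak upstream of the gene, 6.89 kb from the start site (chromosome 11, 117976005 to 117976506), had 580, 547 and 580 in shMed1 #2, 632, 661 and 677 in shMed1 #4, and 485, 454 and 491 in NTC. The 3 groups were apart, with shMed1 #4 highest, and the peak rose (0.36 ± 0.07, limma adjusted p = 2.14e-05). The neighbouring peaks at 15.0 and 19.4 kb downstream rose mainly with shMed1 #4. That at 15.0 kb (chromosome 11, 117954083 to 117954584) had 603, 684 and 677 in shMed1 #2, 741, 801 and 803 in shMed1 #4, and 621, 575 and 548 in NTC. That at 19.4 kb (chromosome 11, 117949703 to 117950204) had 1052, 1010 and 1113 in shMed1 #2, 1302, 1399 and 1205 in shMed1 #4, and 1083, 969.7 and 1031 in NTC, so that shMed1 #2 overlapped NTC and shMed1 #4 stood above both. For the mean of both hairpins the call at 19.4 kb was lost with both other scalings and without NTC replicate 2 (limma adjusted p = 0.0765).

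The remaining Socs3 peaks moved little. At 37.0 kb the change was 0.14 ± 0.04 and at 29.5 kb 0.10 ± 0.04. Both calls were lost with equal sums and quantile normalization, and that at 29.5 kb also without any of 4 single libraries (limma adjusted p of up to 0.134, without NTC replicate 2). The peak at 5.72 kb (chromosome 11, 117963398 to 117963899), at 3573 ± 227 in shMed1 #2, 3810 ± 172 in shMed1 #4 and 3563 ± 137 in NTC (SD, n = 3), did not pass (0.05 ± 0.04, limma adjusted p = 0.308) and was called lower with quantile normalization (-0.13). The weak peak at 44.7 kb, with 75.2 ± 8.97, 64.4 ± 3.92 and 52.1 ± 2.11 in the same order, changed by 0.41 ± 0.18 and did not pass (limma adjusted p = 0.0644). It did with quantile normalization (0.47) and without shMed1 #2 replicate 2 (0.45, adjusted p = 0.0490).

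Socs1, whose product blocks JAK kinases directly, had 3956, 4047 and 4160 normalized counts at its start-site peak (chromosome 16, 10785206 to 10785707) in shMed1 #2, 4581, 4452 and 4421 in shMed1 #4, and 4384, 4197 and 4276 in NTC. The hairpins lay on opposite sides of NTC, shMed1 #4 above and shMed1 #2 below. Neither passed against NTC (0.07 ± 0.04, limma adjusted p = 0.200 with shMed1 #4, and -0.08 ± 0.04, 0.0842 with shMed1 #2). With quantile normalization each was called lower (-0.17 with shMed1 #4 and -0.29 with shMed1 #2). Their mean did not differ from NTC by the test (-0.01 ± 0.03, limma adjusted p = 0.880), though it was called lower with equal sums (-0.09) and quantile normalization (-0.23). Of the 4 peaks past the end of the gene, the 3 nearest to it rose. The one 3.38 kb downstream of the start (chromosome 16, 10781903 to 10782404) had 2326, 2177 and 2432 in shMed1 #2, 2167, 2110 and 1929 in shMed1 #4, and 1615, 1673 and 1620 in NTC, and rose without overlap (0.42 ± 0.05, limma adjusted p = 1.23e-10). Those at 9.06 kb (0.40 ± 0.05) and 2.28 kb (0.23 ± 0.05) rose too, all 3 in each scaling. The farthest Socs1 peak, 18.2 kb downstream (chromosome 16, 10767119 to 10767620), fell to 179, 183 and 173 in shMed1 #2 and 196, 176 and 200.3 in shMed1 #4, against 252, 277 and 224 in NTC (-0.44 ± 0.10, limma adjusted p = 0.000486).

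Socs2, best known as a feedback inhibitor of growth hormone signalling, behaved differently at its strongest gene-end peak (chromosome 10, 95416711 to 95417212). This had 792, 765 and 720 in shMed1 #2, 672, 712 and 685 in shMed1 #4, and 867, 892 and 858 in NTC. All hairpin libraries were below NTC and the peak fell (-0.27 ± 0.06, limma adjusted p = 0.000253). Of the 5 Socs2 peaks 2 rose. The larger rise, 14.5 kb outside the gene (chromosome 10, 95369157 to 95369658), was at a weak peak with 81.7, 87.5 and 79.6 in shMed1 #2, 71.7, 72.6 and 92.4 in shMed1 #4, and 62.7, 46.1 and 64.6 in NTC (0.49 ± 0.17, limma adjusted p = 0.0197). It missed the threshold without NTC replicate 2 (0.34, limma adjusted p = 0.185) and, narrowly, without shMed1 #4 replicate 3 (0.43). The other, inside the gene (chromosome 10, 95414661 to 95415162), rose by 0.30 ± 0.10 and was lost with equal sums and without NTC replicate 2 (limma adjusted p = 0.162).

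Summed over the peaks of each gene, Socs3 had the most signal, at 25493 ± 1506 normalized counts in shMed1 #2, 26424 ± 569 in shMed1 #4 and 22615 ± 519 in NTC (SD, n = 3). Lif followed with 13430 ± 422, 13838 ± 184 and 11911 ± 15.4 in the same order, then Socs1 (9484 ± 247, 9354 ± 274 and 8402 ± 143) and Jak1 (8374 ± 132, 8242 ± 63.2 and 7430 ± 126). Il6st had 4134 ± 125, 3939 ± 74.0 and 3785 ± 32.3, Stat3 3688 ± 35.5, 3884 ± 109 and 3724 ± 62.2, and Jak2 3658 ± 59.7, 3483 ± 106 and 3069 ± 38.4. Il6st and Stat3 could not be ordered in shMed1 #4 or NTC, nor Stat3 and Jak2 in shMed1 #2, since their libraries overlapped. All other neighbours in this order stood apart in every group, down to Osmr (2666 ± 24.0, 2409 ± 105 and 2540 ± 51.2), Socs2 (2183 ± 60.5, 2024 ± 49.8 and 2123 ± 75.1) and Lifr (1672 ± 64.5, 1651 ± 88.9 and 1775 ± 55). The share of all genes whose sums stand apart from NTC was not computed, so the gene counts that follow have no background beside them. With the deposited scaling, all 6 hairpin libraries exceeded the 3 NTC libraries for Socs3, Lif, Socs1, Jak1, Il6st and Jak2. With equal sums this held for Lif, Socs1, Jak1 and Jak2, a check chosen after seeing the data. Socs3 then overlapped, at 23578 to 26434 in shMed1 #2, 25664 to 26340 in shMed1 #4 and 22980 to 23891 in NTC, and so did Il6st, while Lifr lay below NTC in all 6. The sums depend on how many peaks were called and assigned, which differs from 5 to 13 per gene.

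**Figure D4:**
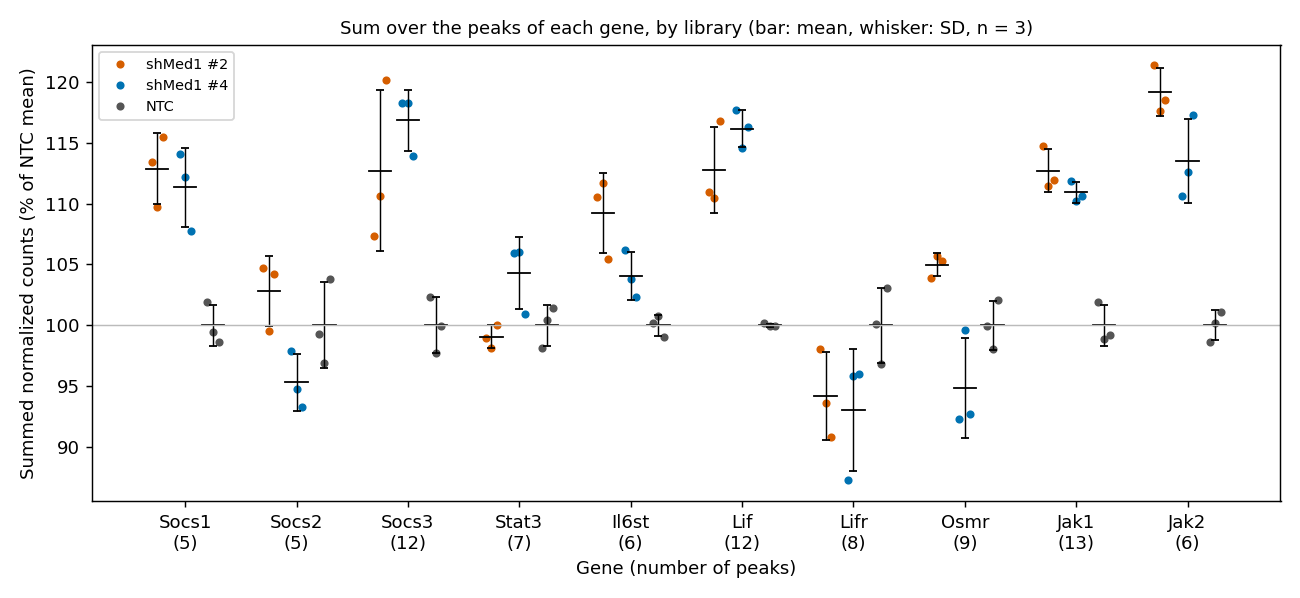
Normalized counts summed over the peaks of each gene, per library, as a percentage of the gene's NTC mean (vertical axis), with the mean and SD of the 3 libraries of shMed1 #2, shMed1 #4 and NTC. Socs3, Lif, Socs1, Jak1, Il6st and Jak2 have all 6 hairpin libraries above NTC, while Osmr has shMed1 #2 above and shMed1 #4 mostly below. With equal library sums, Socs3, Il6st and the shMed1 #2 libraries of Osmr overlap with NTC. The share of all genes that stand apart was not computed.

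The hairpins were also compared with each other. With shMed1 #4 against shMed1 #2, 8 of the 83 peaks were higher and 8 lower, or 19.3%, where 21.5% of all peaks were called (8.48% higher and 13% lower). Without shMed1 #4 replicate 3 the count was 7 in place of 16. At Socs3, 4 of 12 peaks were higher with shMed1 #4 than with shMed1 #2 and none lower, as with equal sums and quantile normalization. Without shMed1 #2 replicate 1, 2 were higher and 1, at 11.1 kb, lower (-0.15, limma adjusted p = 0.0361), and without shMed1 #2 replicate 2, 2 were higher. At Jak1, 1 was higher and 3 were lower. The largest difference downwards was at Osmr, 1.96 kb downstream of the start site (chromosome 15, 6872104 to 6872605), with 222, 224 and 207 in shMed1 #4 and 292, 334 and 334 in shMed1 #2, while NTC had 247, 220.3 and 250.3. The shMed1 #4 libraries overlapped NTC and the shMed1 #2 libraries did not (-0.55 ± 0.11, limma adjusted p = 8.68e-05). Of the 16 calls, 5 held under every alternative: those of Osmr at 1.96 and 24.2 kb, Jak2 at 40.9 kb, Socs3 at 19.4 kb and the Socs1 start site.

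**Figure D5:**
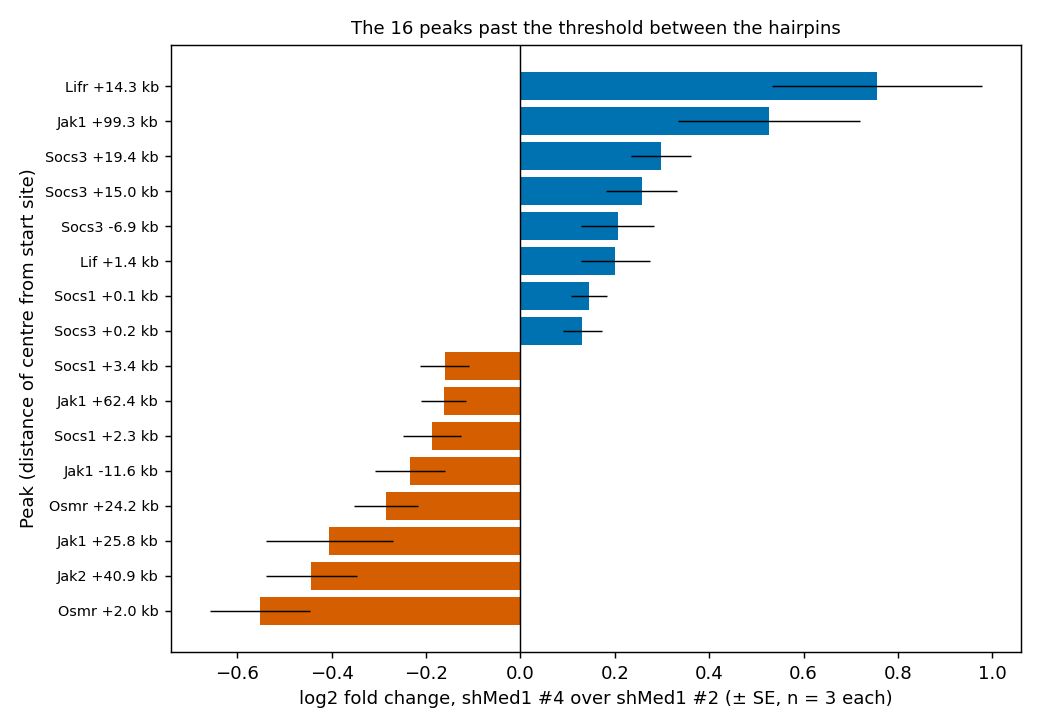
Log2 fold change of shMed1 #4 over shMed1 #2 (horizontal axis, bars from 0 with limma's SE, n = 3 each) at the 16 peaks past the adjusted p threshold, named by gene and distance of the peak centre from the start site (vertical axis). The bars run from -0.55 at Osmr to 0.76 at Lifr, with all 4 Socs3 bars on the side of shMed1 #4.

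At the limit of the 50 kb rule, the farthest Socs3 peak inside it lay 41.4 kb from the gene end with a log2 change of 0.41, and the farthest Il6st peak 38.6 kb away with -0.15. Just outside it were a peak 58.8 kb from Lifr (-0.49) and one 76.1 kb from Osmr (0.12).

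Other genes of the pathway were taken as 5 lists with 282 peaks, of which 77 rose and 53 fell for the mean of both hairpins, with a median of 0.03. This split turned with the scaling, to 55 higher and 74 lower with equal sums and 62 and 68 with quantile normalization. Over all 75930 peaks tested the split turned likewise. It went from 16796 higher and 13452 lower to 12104 and 21010 with equal sums and 14947 and 15203 with quantile normalization. Among further gp130 ligands 3 of 20 peaks rose and 3 fell (with equal sums 2 higher and 6 lower). A peak near Il27 rose (0.59 ± 0.12), as did one near Cntf (0.32 ± 0.07), while peaks in Clcf1 (-0.21 ± 0.06) and Il6 (-0.42 ± 0.16, not called with quantile normalization) fell. Among other receptor chains 8 of 24 rose and 7 fell. Here the start-site peak of Il6ra, the gene of the interleukin-6 receptor, stood at the 99.7 percentile of all peaks by its mean, with 5238 ± 159 in shMed1 #2, 5179 ± 292 in shMed1 #4 and 4119 ± 211 in NTC (SD, n = 3). It rose by 0.34 ± 0.04 (limma adjusted p = 3.91e-11). A peak in Cntfr, the receptor gene for ciliary neurotrophic factor, rose by 0.91 ± 0.17 while another near it fell (-0.40 ± 0.11), and a peak in Il27ra fell (-0.41 ± 0.12).

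Among other JAK and STAT genes 5 of 23 peaks rose and 7 fell (with equal sums 3 higher and 10 lower). A pair of peaks near Stat6, the factor that answers to interleukin-4, rose by 0.66 ± 0.06 and 0.65 ± 0.08, and the Jak3 start site fell (-0.27 ± 0.06). Among inhibitors and adaptors 19 of 88 rose and 10 fell (11 and 17 with equal sums, 13 and 17 with quantile normalization). Ptpn1, a phosphatase that removes phosphate from JAKs, rose at a peak inside the gene (0.48 ± 0.04) and Socs5 at a peak near it (0.41 ± 0.05). The start-site peak of Pias1, a gene of the family of protein inhibitors of activated STAT, fell (-0.45 ± 0.06), and so did a peak near Socs6 (-0.32 ± 0.07). Among genes known as STAT3 targets 42 of 127 peaks rose and 26 fell, with a median of 0.07 (32 and 34 with equal sums, 35 and 34 with quantile normalization), and 3 genes (Timp1, Lcn2 and Saa3) had no peak. Peaks in the survival gene Bcl2l1 (0.53 ± 0.04) and near Fos (0.50 ± 0.04) rose, and the start site of Birc5 (-0.31 ± 0.04) and a peak in Ccnd1, the cyclin D1 gene (-0.39 ± 0.05), fell. Of all peaks tested 22.1% rose and 17.7% fell, as given above. The counts over all peaks in the other scalings, also given above, apply to each list.

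Among the genes whose gene-end peak was most like the Socs3 start-site peak across the 9 libraries were Ggps1, Ccdc107, Mvd and Mknk2. Likeness was the root mean square difference of log2(value + 1), each peak centred on its own mean. It was 0.0288 for Ggps1, 0.0345 for Ccdc107, 0.0358 for Mvd and 0.0364 for Mknk2, against a median of 0.162 over 10005 genes. Mvd, for example, had 3490 in shMed1 #2, 3909 in shMed1 #4 and 3356 in NTC. The genes compared were taken from a mean of 50 upwards, and the median was not matched for peak strength.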

How the data were processed

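Per the labels' protocols, D2A1-d cells were transduced with hairpins and tagmented with the Nextera transposase. Per the submitters' processing notes, Trim Galore, BWA, MACS2 and featureCounts (Subread) were used with mm10 (GRCm38). What was done about duplicates, merging of peaks and the transposase offset is not stated in those notes. The authors deposited a signal per peak, named by them as DESeq2-normalized counts. Values were whole multiples of a step per library (100% within 0.05 reads), with size factors of 0.799 to 1.22. No peak of 1 read was there to check that step against, so no count model was run.

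Values plus 1 (the pseudocount) were put on a log2 scale and tested with limma 3.58.1 in R 4.3.3 (trend, 3 group means over all 9 libraries, mean of at least 10, 75930 peaks), two-sided, with Benjamini-Hochberg adjustment over all peaks; the fit was tested on simulated data. Figures used matplotlib 3.10.9. Intervals and errors cover these libraries only, and precision is limited by 3 libraries per group. The replicate numbers do not mark shared cultures in the labels.

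Peaks were assigned with RefSeq genes (GRCm38.p6). Coordinates are the deposited ones; the sources do not say whether counting begins at 0 or 1. The members and lists were chosen with earlier results of these data known. The start-site class (within 1 kb of the gene's own start site) was chosen after seeing the data and replaces the gene-end peak, except for Socs2 and for likeness candidates. Every Socs3 peak, each start-site or strongest gene-end peak, the 5 largest rises and falls with a mean of at least 50, and at most 2 peaks per pathway list and direction, by smallest adjusted p, are named. Other peaks named (such as those past the threshold between hairpins or lost under an alternative) were chosen after their values were seen. Alternatives were another pseudocount, no filter, equal sums, quantile normalization, quality weights, the replicate number as a block, fewer groups in the fit, each library left out, and nearest-end assignment. Some peaks that the naming rule picked are not reported here.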

Additional observations from a re-analysis of the deposited data

Results flagged for a closer look

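The change against NTC differed between the hairpins at 16 peaks, tested as shMed1 #4 against shMed1 #2 with limma (log2 fold changes, adjusted p below 0.05 over all peaks). At Osmr, the peak 1.96 kb downstream of the start site differed by -0.55 and the peak at 24.2 kb by -0.285, and both were higher with shMed1 #2 than in NTC while shMed1 #4 overlapped NTC. At Socs3, 4 peaks were higher with shMed1 #4: the peak at 19.4 kb by 0.30, that at 15.0 kb by 0.26, that 6.89 kb upstream by 0.21 and the start site by 0.13. The Socs3 start-site difference was lost without shMed1 #2 replicate 1 (0.08, limma adjusted p = 0.163), shMed1 #2 replicate 2 (0.0606) or shMed1 #4 replicate 1 (0.0743). That at 15.0 kb was lost without shMed1 #2 replicate 1 (0.0601). The upstream one was lost with the block, with fewer groups in the fit and without any of 7 single libraries.

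At Jak2, the peak 40.9 kb into the gene differed by -0.44. At Jak1, the peak at 25.8 kb differed by -0.41, that 11.6 kb upstream by -0.23 and that at 62.4 kb by -0.16, while a weak peak at 99.3 kb differed by 0.53. All these Jak1 differences were lost without shMed1 #4 replicate 3 (limma adjusted p of 0.0535 to 0.0783). Those 11.6 kb upstream and at 99.3 kb were also lost with quantile normalization. At Socs1, the start site differed by 0.15, the peak at 2.28 kb by -0.19 and that at 3.38 kb by -0.16. The last 2 were lost without shMed1 #4 replicate 3 (limma adjusted p = 0.0753 and 0.183) or shMed1 #2 replicate 3. At Lif, the peak 1.45 kb downstream of the start differed by 0.20. The Lif call was lost with the block, with fewer groups in the fit and without single libraries (limma adjusted p of up to 0.139, without shMed1 #2 replicate 3). The largest difference was 0.76 at a weak peak in Lifr, 14.3 kb downstream of the nearer of its 2 listed start sites (64.5, 98.8 and 108 in shMed1 #4, 47.4, 70.3 and 41.9 in shMed1 #2), with overlapping libraries. It was lost without shMed1 #4 replicate 3 (0.61, limma adjusted p = 0.0853), shMed1 #4 replicate 2 (0.68, 0.0591) or shMed1 #2 replicate 3 (0.60, 0.0711).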

How the results depend on the processing

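The number of called peaks among the 83 stayed within 1.5 times under every alternative for the 3 contrasts with NTC. Leaving out 1 library gave 30 to 40 calls with shMed1 #2 (38 with all libraries), 22 to 32 with shMed1 #4 (32) and 32 to 44 for the mean of both hairpins (44). For shMed1 #4 against shMed1 #2 it gave 7 to 17 (16), the 7 without shMed1 #4 replicate 3. Calls that held under every alternative were 24 of 38, 17 of 32, 25 of 44 and 5 of 16 in the same order. Falls moved by over 1.5 times: with shMed1 #2 there were 6 in place of 11 without shMed1 #2 replicate 3 and 7 without NTC replicate 3, and with shMed1 #4 2 in place of 6 without NTC replicate 2 and 3 without NTC replicate 3. Over all peaks, falls in the same settings were 11733 and 10348 in place of 14781 with shMed1 #2. With shMed1 #4 they were 5819 and 5500 in place of 9152. Equal sums gave 20 higher and 17 lower with shMed1 #2 and 18 and 11 with shMed1 #4, and quantile normalization 24 and 16, and 20 and 9. Over all 75930 peaks, equal sums gave 13498 higher and 22132 lower with shMed1 #2 and 9329 and 14938 with shMed1 #4. Quantile normalization gave 15924 and 16829, and 11436 and 10557. Between hairpins, the 8 higher calls were 5 without shMed1 #2 replicate 2 and 4 without shMed1 #4 replicate 2 or 3, and the 8 lower calls 3 without shMed1 #4 replicate 3.

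Values called neither in the main fit nor under an alternative counted as kept, whatever their sign. Socs3 at 29.5 kb with shMed1 #2, for example, went from 0.07 to as low as -0.04. Of 1890 values of named peaks under an alternative, 1741 kept their call, 110 lost it, 29 gained it and 10 reversed, all 10 with quantile normalization. These were Socs3 at 5.72 kb (-0.16 with shMed1 #2, -0.13 for the mean of both hairpins), the Socs3 start site (-0.17 with shMed1 #2, -0.0615 with shMed1 #4, -0.12 for the mean), Socs3 at 29.5 kb (-0.0112 for the mean), the Socs1 start site with shMed1 #4 (-0.17), the Stat3 start site (-0.0093 with shMed1 #4, -0.0379 for the mean) and the Il6st start site (-0.0116 for the mean). The cause was not tested.

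The replicate number as a block gave 37, 32, 40 and 13 calls. Deviations from the group means correlated at -0.0843 to 0.0335 between libraries with the same number. Between libraries with different numbers the correlations were -0.0364 to 0.0764. Whether a number marks a shared culture or day cannot be told from these values. Planned edgeR and DESeq2 fits were not run, since no peak of 1 read was there to check the recovered steps against. Weak peaks, with means below 200, limit what could be called at this depth.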
